A study of Mus musculus with 20 samples.

Results

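Microglia from plaque-bearing mice that lack the receptor Trem2 were compared with microglia from plaque-bearing mice that have it. The comparison rests on 11 of the study's 20 arrays, chosen by their genotype label alone: 6 arrays labelled Trem2-/-5XFAD and 5 labelled 5XFAD. All animals were littermates aged 8.5 months. The 5XFAD mice of both groups carry transgenes for mutant human amyloid precursor protein and presenilin 1, driven in neurons by the Thy1 promoter, and form amyloid plaques; the Trem2-/-5XFAD mice also lack Trem2, and no cell-restricted deletion is named in the labels. The brains were perfused, dissociated and sorted for microglia, and 2 ng of total RNA went into each labelled cRNA. The sorting gate, the sex of the animals and the number of animals per array are not stated in these sources. Arrays of 4 WT and 4 Trem2-/- littermates without the transgenes give reference levels below, and 1 array whose title and genotype label disagree was not used.

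TREM2 is a surface receptor of microglia, the resident macrophages of the brain, that binds phospholipids, lipoproteins and amyloid. It has no signalling tail of its own and works through the adaptor TYROBP (also DAP12), whose phosphorylated motif recruits the kinase SYK. Microglia that gather at plaques take up lipid and debris and switch from a resting, homeostatic set of genes to a set known as disease-associated microglia (DAM) genes.

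Of 12728 genes tested, 977 (7.68%) differed between the groups at an adjusted limma p under 0.05. Of these, 568 (4.46% of the genes tested) were lower in Trem2-/-5XFAD and 409 (3.21%) were higher. These shares over all genes are the background for the counts within each gene list below. The decreases were the larger changes: 144 genes were lower by more than 1 on the log2 scale and 22 were higher by more than 1. The arrays of the groups did not overlap at all for 421 of the lower and 271 of the higher genes; over all genes, called or not, this held for 909 (7.14%). Levels are given as log2(intensity + 1), differences are log2 differences with their standard error (SE) from the limma model, and the median difference over all genes tested was 0.04. Centring each array on its median shifted that value to -0.01 and the split to 641 lower against 260 higher genes. Sorted cells were measured in bulk, so fewer cells with a transcript and less of it per cell cannot be told apart.

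**Figure D1:**
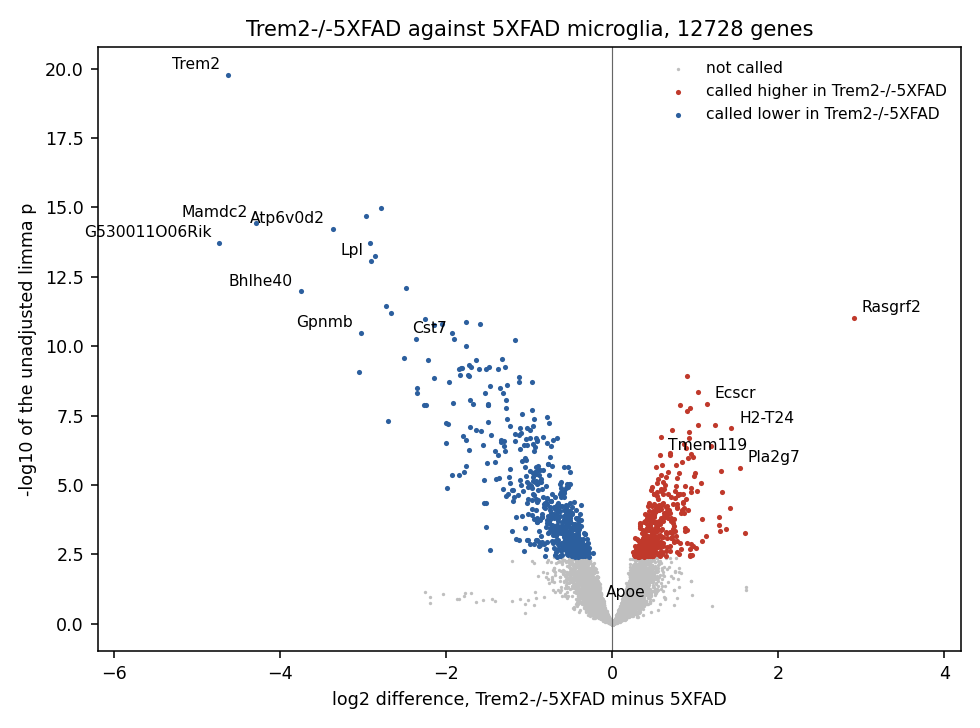
Each point is a gene; the x axis is the log2 difference between Trem2-/-5XFAD and 5XFAD arrays and the y axis -log10 of the unadjusted limma p. The 568 genes called lower (blue) reach a difference of -4.74, whereas the 409 called higher (red) reach 2.91, that of Rasgrf2.

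Cell type markers, salivary gland transcripts and a sex-linked transcript varied between the arrays. The 11 microglial markers summed to 25162 to 25906 intensity units on the 5XFAD arrays and to 29287 to 31078 on the Trem2-/-5XFAD arrays. The 16 markers of border macrophages, the macrophages of meninges and vessels, summed to 1158 to 2111 and 1795 to 2922, the 12 neutrophil markers to 1104 to 2122 and 1127 to 5948, and the 13 astrocyte markers to 660 to 968 and 464 to 614. Of the astrocyte markers, Aqp4, Aldh1l1, Gjb6 and Slc4a4 stayed at or under the 40th percentile on all 11 arrays, and of the neutrophil markers Ltf, Mmp8 and Cxcr2 did. Salivary gland transcripts summed to 4103 and 3630 on 5XFAD arrays 1 and 2 against 158 to 218 on the other 9 arrays, and the female transcript Xist read 9.52 on 5XFAD array 1 against 3.20 to 3.67 on the other 10. Among the arrays without the transgenes the sums were 5371 and 6999.8 on WT arrays 1 and 2, 1522 and 409 on Trem2-/- arrays 3 and 2 and 311 on WT array 4. A further fit left out the 4 arrays with the largest sums, 5XFAD 1 and 2 and WT 1 and 2, while the Trem2-/- arrays stayed in. In this fit, below called the one without the 4 salivary arrays, 325 genes were called lower and 254 higher. Of the 977 genes, 512 were called in the same direction. The fit has fewer arrays, so a lost call there does not by itself mean a smaller difference. Sall1, not called there, was 0.47 against 0.45 over all arrays, whereas Mrc1, also not called, was 0.76 against 1.28.

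**Figure D2:**
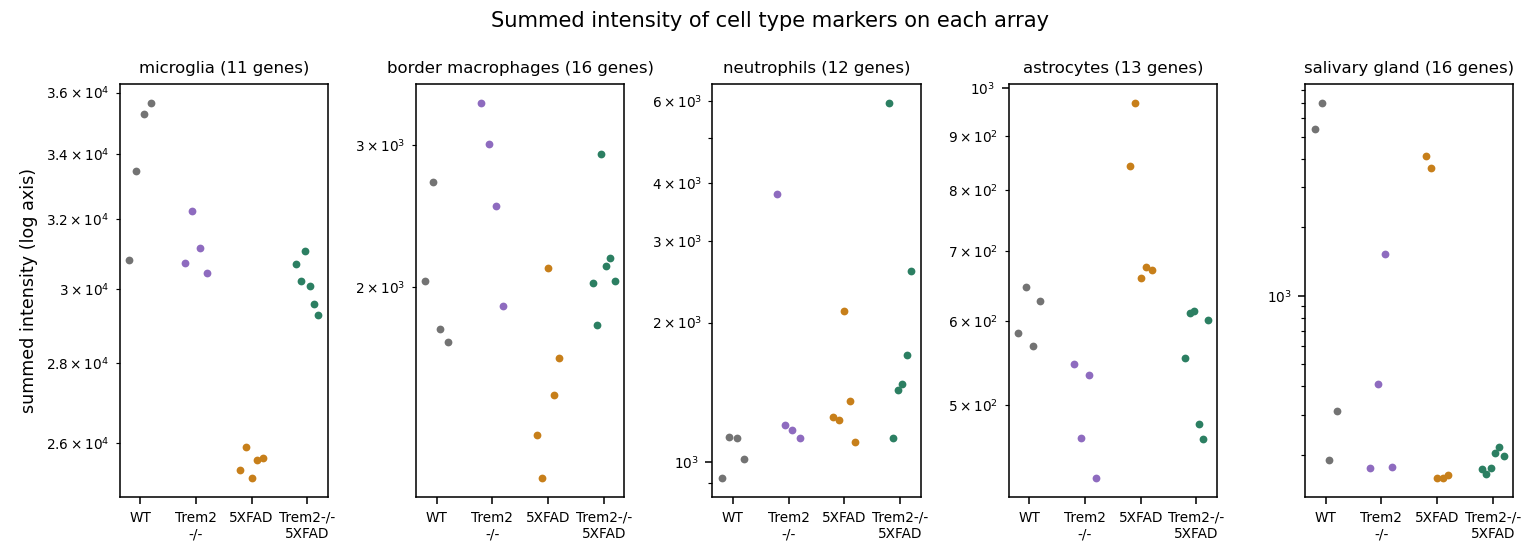
Each point is an array and the y axis, logarithmic, is the summed intensity of the markers of a cell type. Microglial markers separate 5XFAD (25162 to 25906) from Trem2-/-5XFAD (29287 to 31078), while salivary transcripts are high on 2 of the 5 5XFAD arrays.

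Trem2 itself was measured first, as it checks the labels. It read 11.80, 11.79, 11.45, 11.67 and 11.66 on 5XFAD arrays 1 to 5, and from 6.75 to 7.60, with a median of 6.96, on the Trem2-/-5XFAD arrays. Every Trem2-/-5XFAD array was thus far below every 5XFAD array, and the difference was -4.63 ± 0.12 (SE; adjusted p = 2.12e-16). The signal left on the Trem2-/-5XFAD arrays was above the 40th percentile of the arrays (4.16 to 4.34), and where the probes lie relative to the deleted sequence is not stated. The adaptor Tyrobp read 12.33 to 12.43 against 12.46 to 12.63, a difference of -0.18 ± 0.07 that did not pass (adjusted p = 0.16).

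Among 32 tested genes of TREM2 signalling, 5 (15.6%) were lower, Trem2 included, and 4 (12.5%) were higher, with a median difference of 0.12. Below the receptor, Syk, the kinase that binds TYROBP, was higher by 0.29 ± 0.09 (adjusted p = 0.0403), a call that 16 of 26 other settings and subsets of arrays did not give. The phosphoinositide 3-kinase subunits of blood cells were higher, Pik3cg by 0.39 ± 0.08 and Pik3cd by 0.50 ± 0.12, and so was Vav2 by 0.45 ± 0.09. The paracaspase Malt1, which links such receptors to NF-kappaB, read 7.48, 7.77, 7.92, 8.13 and 7.78 in 5XFAD and 6.66 to 7.05 (median 6.82) in Trem2-/-5XFAD, a difference of -0.97 ± 0.11 (adjusted p = 3.5e-06). Its groups lay apart, and the WT arrays (6.62 to 6.96) overlapped Trem2-/-5XFAD. The Src-family kinase Fgr was lower by 1.38 ± 0.20, the adaptor Hcst (DAP10) by 0.75 ± 0.15 and the adaptor Lat2 by 0.44 ± 0.10. Pik3cd and Lat2 were not called without the 4 salivary arrays. The lipid phosphatase Inpp5d and the phospholipase Plcg2 differed by 0.29 ± 0.10 (adjusted p = 0.0777) and 0.24 ± 0.10 (adjusted p = 0.166). Treml2, a neighbouring gene of the TREM family, was lower by 1.01 ± 0.17 (adjusted p = 0.000559), with 6.22 to 6.52 in Trem2-/-5XFAD against 7.08 to 7.83.

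Beyond Trem2, the largest decreases included genes that were high in 5XFAD and at or near background without Trem2. Mamdc2, an extracellular matrix protein of DAM, read 8.64, 8.36, 7.42, 8.44 and 7.97 in 5XFAD and 3.16 to 4.38 (median 3.91) in Trem2-/-5XFAD. The WT arrays read 3.37 to 3.67, and the difference was -4.29 ± 0.21 (adjusted p = 1.18e-11). The repressor Bhlhe40 read 9.04, 8.27, 8.13, 8.72 and 8.19 against 4.44 to 4.98 (median 4.74), a difference of -3.75 ± 0.24 (adjusted p = 1.22e-09). Flt1, the VEGF receptor 1, read 7.50, 6.93, 6.73, 7.15 and 7.05 against 3.85 to 4.38 (median 4.07), a difference of -2.97 ± 0.14 (adjusted p = 8.49e-12). Dkk2, a secreted modulator of Wnt signalling, read 7.24, 7.28, 7.46, 7.47 and 7.07 against 4.32 to 4.78 (median 4.52), a difference of -2.79 ± 0.13 (adjusted p = 6.54e-12). For Bhlhe40, Flt1 and Dkk2 the groups were separate and the Trem2-/-5XFAD arrays overlapped the WT arrays, which read 3.71 to 5.45, 3.93 to 4.38 and 4.04 to 4.58. Dcstamp, a membrane protein of cell fusion in osteoclasts, was lower by 2.86 ± 0.16, from 6.49 to 6.85 down to 3.31 to 4.24, and Etl4 by 2.67 ± 0.19. Where the lower group lies around the 40th percentile of the array (4.16 to 4.34), as for Mamdc2, Flt1 and Dcstamp, the fold may be compressed by background signal.

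The DAM list showed how far this extended. Of its 61 tested members 42 were lower and none was higher in Trem2-/-5XFAD, and the median difference was -1.18; the count stayed between 38 and 43 with other scalings, without the 4 salivary arrays and without any single array. The list was compiled from published work on plaque-associated microglia with earlier results of these data known, so its direction is no independent evidence. In 5XFAD, 53 of the 61 members lay on every array above every WT array; in Trem2-/-5XFAD this held for 29. Over all genes tested, the numbers were 907 and 497 of 12728.

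Of the 42 DAM genes called lower, 23 were still on every Trem2-/-5XFAD array above every WT array, 18 overlapped WT and 1 lay below it; over all 568 lower genes the numbers were 112, 437 and 19. Itgax (CD11c), an integrin chain of phagocytes, read 9.50, 9.24, 8.98, 9.58 and 9.40 in 5XFAD, 6.09 to 6.55 (median 6.49) in Trem2-/-5XFAD and 4.85 to 5.58 in WT, and the difference between the plaque-bearing groups was -2.92 ± 0.15 (adjusted p = 3.55e-11). Cst7, an inhibitor of cathepsins, read 12.19, 12.15, 12.22, 12.28 and 12.21 in 5XFAD, 9.95 to 10.61 (median 10.29) in Trem2-/-5XFAD and 7.25 to 7.65 in WT, a difference of -1.90 ± 0.15 (adjusted p = 3.02e-08). Gpnmb, a glycoprotein of lysosome and cell surface, read 9.58, 8.79, 9.24, 9.74 and 9.61, then 5.78 to 6.97 (median 6.43), with 3.51 to 4.21 in WT, a difference of -3.03 ± 0.24 (adjusted p = 2.03e-08). In each of these genes the 3 groups formed separate steps with 5XFAD highest. The receptor tyrosine kinase Axl, which recognises dying cells, was lower by 2.49 ± 0.16, the beta-glucan receptor Clec7a (Dectin-1) by 1.70 ± 0.16, Cd52 by 1.32 ± 0.14, the heparanase Hpse by 1.74 ± 0.17, the actin-capping protein Capg by 1.76 ± 0.13 and Ccl6 by 1.18 ± 0.09. Axl on the Trem2-/-5XFAD arrays (6.40 to 6.94) stayed above WT (5.28 to 5.92), and Clec7a did too (7.49 to 8.20 against 5.76 to 6.29).

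Other members of the fixed set did not pass the test. Apoe, the lipoprotein ligand of TREM2, read 13.03, 12.91, 12.80, 12.86 and 12.83 in 5XFAD and 12.63 to 12.84 (median 12.69) in Trem2-/-5XFAD. The groups touched, WT lay at 11.09 to 11.60, and the difference was -0.17 ± 0.12 (adjusted p = 0.481). Cd9 (-0.14 ± 0.09; adjusted p = 0.429), Cd63 (-0.18 ± 0.10; 0.324), Ctsb (-0.22 ± 0.09; 0.156) and Ctsd (-0.04 ± 0.07; 0.798) did not pass either, nor did B2m (-0.10 ± 0.08; 0.539).

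**Figure D3:**
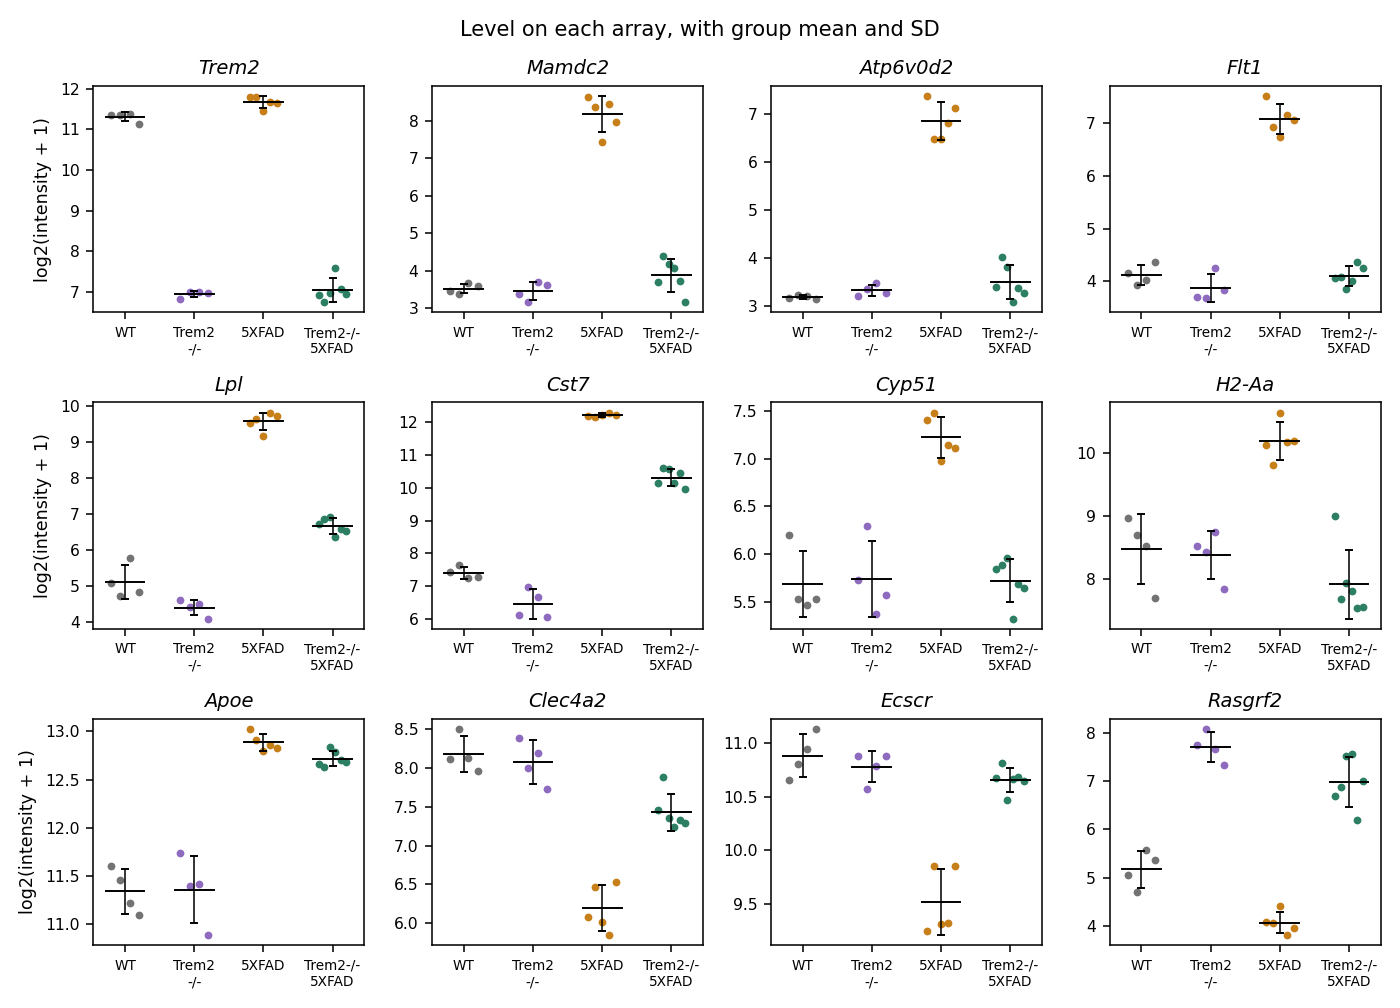
Each point is an array, horizontal bars are group means and vertical bars SD (4 WT, 4 Trem2-/-, 5 5XFAD and 6 Trem2-/-5XFAD arrays), and the y axis is log2(intensity + 1). Mamdc2, Atp6v0d2, Flt1, Cyp51 and H2-Aa in Trem2-/-5XFAD overlap or adjoin WT, Lpl and Cst7 lie between WT and 5XFAD, Apoe stays near 5XFAD, Clec4a2 lies between 5XFAD and WT, and Ecscr overlaps WT.

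Of 19 tested V-ATPase subunits, which acidify the lysosome, 2 (10.5%) were lower, against 4.46% of all genes, and the list's median was 0.02. The larger of these was Atp6v0d2, a macrophage and osteoclast form of the d subunit, which read 7.38, 6.49, 6.49, 6.82 and 7.14 in 5XFAD and 3.08 to 4.03 (median 3.39) in Trem2-/-5XFAD, a difference of -3.37 ± 0.17 (adjusted p = 1.48e-11). Its groups were far apart and WT arrays lay at 3.16 to 3.24. The Trem2-/-5XFAD values lie below the 40th percentile of the arrays (4.16 to 4.34), and the difference was -3.49 to -2.32 over the other settings. The other, Atp6v1f, was lower by 0.34 ± 0.10 (adjusted p = 0.04), and lost its call in 14 of 26 other settings, among them quantile scaling and the fit without the 4 salivary arrays. Of 16 cathepsins and cystatins 2 were lower, Cst7 and the aspartic protease Ctse, which read 8.19, 7.62, 7.04, 8.06 and 8.12 against 5.47 to 6.31 (median 5.85), a difference of -1.97 ± 0.19 (adjusted p = 5.08e-07). Among 45 further hydrolases and lysosomal membrane proteins 8 were lower and 3 higher, with a median of -0.06. The glycosidases Glb1, Gusb, Galc and Fuca1 were lower by 0.76 ± 0.11, 0.62 ± 0.11, 0.63 ± 0.13 and 0.51 ± 0.10, whereas the heparan sulphatase Sgsh was higher by 0.62 ± 0.13 and the sorting receptor Sort1 by 0.45 ± 0.11. Rab7b, a GTPase of late endosomes, was lower by 2.23 ± 0.20, at 5.21 to 5.62 against 7.17 to 7.89.

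About as many cholesterol synthesis genes were lower as were not called, and those lower overlapped WT in Trem2-/-5XFAD. Of 25 tested members of the pathway and its regulators 12 were lower and none higher, with a median of -0.47; without the 4 salivary arrays 11 were lower. In 5XFAD, 12 of the 25 lay on every array above every WT array, and in Trem2-/-5XFAD none did. Srebf2, the transcription factor that switches the pathway on, read 7.58, 7.38, 7.37, 7.73 and 7.61 in 5XFAD, 6.27 to 6.48 (median 6.47) in Trem2-/-5XFAD and 6.38 to 6.41 in WT, a difference of -1.12 ± 0.11 (adjusted p = 3.63e-07). The enzyme Cyp51, a lanosterol demethylase, read 7.40, 7.48, 6.98, 7.14 and 7.11 against 5.33 to 5.96 (median 5.77), a difference of -1.49 ± 0.16 (adjusted p = 2.54e-06). Neither gene's groups overlapped. The methyl sterol oxidase Msmo1 was lower by 1.12 ± 0.19, the sterol carrier Stard4 by 1.05 ± 0.15 and Hmgcs1, which makes the precursor HMG-CoA, by 1.03 ± 0.14. The core of the sterol regulatory element, written TCACNCCAC and searched on both strands of the RefSeq promoters (GRCm38.p6; 250 bases before to 50 after each start), was in 1 of 21 listed genes with a promoter sequence, Hmgcs1, and in 1.40% of the 10168 tested genes with a sequence and 1.74% of those called lower. The stretch of the Hmgcs1 promoter (chr13:119690169-119690268, plus strand) is printed to show the match, in capitals, which starts 137 bases before the annotated start:
Hmgcs1: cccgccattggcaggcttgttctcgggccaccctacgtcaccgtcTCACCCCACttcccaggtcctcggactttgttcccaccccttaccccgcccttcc
A match is a description of letters and no evidence that the factor bound there.

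Lipid uptake and storage genes included large decreases. Lpl, which releases fatty acids from lipoproteins, read 9.54, 9.64, 9.18, 9.81 and 9.72 in 5XFAD, 6.37 to 6.92 (median 6.65) in Trem2-/-5XFAD and 4.73 to 5.78 in WT, a difference of -2.91 ± 0.16 (adjusted p = 1.17e-10). The fatty acid carrier Fabp5 read 10.19, 9.89, 10.36, 9.96 and 9.83 against 7.14 to 8.05 (median 7.75), a difference of -2.36 ± 0.24 (adjusted p = 7.66e-07). Acaca, which commits carbon to fatty acid synthesis, was lower by 2.05 ± 0.15, Fabp3 by 1.30 ± 0.18 (-2.64 by its other probe set and -1.97 by the mean of both) and the desaturase Scd2 by 0.90 ± 0.16; over the whole list of 41 genes 7 were lower and 2 higher, with a median of -0.02. Ch25h, which makes the oxysterol 25-hydroxycholesterol, read 8.60, 8.38, 7.92, 7.62 and 8.20 against 5.03 to 5.88 (median 5.41), a difference of -2.70 ± 0.32 (adjusted p = 8.25e-06). Sterol efflux genes moved in both directions, with 4 of 19 lower and 3 higher: the efflux pump Abca1 was higher by 0.56 ± 0.11 (adjusted p = 0.00301) and the lysophospholipid acyltransferase Lpcat3 by 0.61 ± 0.10, while the lipoprotein receptor Scarb1 was lower by 0.86 ± 0.14. Abca1 lost its call without the 4 salivary arrays and with the border macrophage covariate. Apoc1, a small apolipoprotein, was higher by 1.30 ± 0.31 (adjusted p = 0.0111), at 6.73 to 8.63 against 5.70 to 7.40, and both groups stood above WT (3.91 to 4.26). With the replicate number as a block it was not called.

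Phospholipid and eicosanoid genes leaned the other way, with 9 of 43 higher, 4 lower and a median of 0.15. Pla2g7, which hydrolyses platelet-activating factor, read 4.87, 5.21, 5.10, 4.36 and 5.22 in 5XFAD and 6.07 to 7.01 (median 6.44) in Trem2-/-5XFAD, a difference of 1.53 ± 0.24 (adjusted p = 0.0002). Lpcat2, which makes platelet-activating factor, was higher by 0.47 ± 0.08, the leukotriene C4 synthase Ltc4s by 0.86 ± 0.12 and the phospholipase Pld1 by 0.65 ± 0.11. Against these, the prostaglandin synthase Ptgs2 (COX-2) read 10.29, 10.46, 10.32, 10.18 and 10.11 against 8.08 to 8.63 (median 8.32), a difference of -1.93 ± 0.15 (adjusted p = 2.03e-08), and the prostaglandin E2 receptor Ptger4 was lower by 1.28 ± 0.14. Pld3, a lysosomal exonuclease, was lower by 0.52 ± 0.11, and not called without the 4 salivary arrays.

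Among growth and repair factors and their receptors, 13 of 31 tested were lower and 2 higher, with a median of -0.11, as the members that did not pass lay on both sides of 0. Csf1, a ligand of the microglial survival receptor Csf1r, read 10.43, 10.54, 10.23, 10.61 and 10.46 in 5XFAD and 8.72 to 9.08 (median 8.84) in Trem2-/-5XFAD, a difference of -1.59 ± 0.12 (adjusted p = 1.1e-08). Csf1 was also called lower in Trem2-/- than in WT, by 0.94 ± 0.14. Its receptor Csf1r differed by 0.21 ± 0.07 (adjusted p = 0.0896). Igf1 read 9.57, 9.45, 9.02, 9.58 and 9.10 against 6.46 to 7.53 (median 7.09), a difference of -2.36 ± 0.24 (adjusted p = 1.12e-06), with WT at 4.21 to 5.78. Vegfa, a ligand of Flt1, was lower by 1.49 ± 0.16, at 6.22 to 6.68 against 7.66 to 8.09, so ligand and receptor were lower together. The matrix protein Thbs1 was lower by 0.74 ± 0.15, while Bmp2, a bone morphogenetic protein, and Hbegf, a ligand of the EGF receptor, were higher by 0.91 ± 0.18 and 0.94 ± 0.25. Hbegf was not called in 8 of 26 other settings. Bmp2 was not called with border macrophage markers as a covariate (0.67; adjusted p = 0.102) and was 0.57 with a pseudocount of 16, where it was called.

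Part of the class II antigen presentation genes were lower as well. Of 17 tested class II genes 7 were lower and none higher; the list's median was -0.01, as the other 10 lay near 0, and the count was 6 without the 4 salivary arrays and 7 without any single array. H2-Aa read 10.13, 9.80, 10.64, 10.18 and 10.18 in 5XFAD and 7.54 to 9.0 (median 7.74) in Trem2-/-5XFAD, a difference of -2.27 ± 0.25 (adjusted p = 2.54e-06). H2-Ab1, the partner chain, read 10.21, 9.77, 10.38, 9.97 and 9.94 against 7.23 to 8.70 (median 7.83), a difference of -2.25 ± 0.25 (adjusted p = 2.53e-06). No array of the groups overlapped in either gene, and the WT arrays (7.70 to 8.98 for H2-Aa) spanned most of the Trem2-/-5XFAD range. Cd74, the invariant chain, was lower by 2.15 ± 0.16, H2-Eb1 by 2.01 ± 0.24 and H2-Oa, part of the regulator of peptide loading, by 0.84 ± 0.13. H2-Oa at 8.23 to 8.64 lay below every WT array (8.87 to 9.14). Genes of the H2 family share sequence, so a probe set may report more than 1 member. The promoters of 3 of them (RefSeq, GRCm38.p6) are printed because they hold the Y box, here the letters CTGATTGG on either strand, a known element of class II promoters bound by NF-Y, shown in capitals within 100 bases of the coding strand around it for H2-Aa (chr17:34287824-34287923, minus strand), H2-Eb1 (chr17:34305759-34305858, plus strand) and H2-Oa (chr17:34092279-34092378, plus strand):
H2-Aa: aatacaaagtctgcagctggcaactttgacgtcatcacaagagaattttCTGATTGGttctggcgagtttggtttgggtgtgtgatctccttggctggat
H2-Eb1: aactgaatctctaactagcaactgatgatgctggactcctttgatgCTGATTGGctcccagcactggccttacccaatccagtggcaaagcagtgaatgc
H2-Oa: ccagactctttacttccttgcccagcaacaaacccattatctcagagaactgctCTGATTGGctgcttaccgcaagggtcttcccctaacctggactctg
The match starts 51, 62 and 46 bases before the respective starts. It was found in these 3 of 12 class II genes with a promoter sequence, in 5.92% of all tested genes with a sequence and in 3.92% of those called lower.

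Class I genes showed no common direction, with 2 of 18 lower (11.1%) and 1 higher (5.56%), against 4.46% and 3.21% of all genes. The nonclassical H2-T24 was higher by 1.43 ± 0.18 (adjusted p = 1.3e-05), at 7.47 to 7.86 against 5.80 to 6.88, and H2-M3 was lower by 1.27 ± 0.15. The immunoproteasome subunit Psmb8 was lower by 0.45 ± 0.11, and not called without the 4 salivary arrays (-0.30) or without 5XFAD array 1.

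Part of the homeostatic genes were higher. Of 44 tested surface and secreted genes of resting microglia 18 were higher and none was lower, with a median of 0.26; the count ran from 15 to 24 over other scalings, without the 4 salivary arrays and without any single array. In 5XFAD, 35 of the 44 lay on every array below every WT array, and in Trem2-/-5XFAD 21 did, against 798 and 341 of all 12728 genes. The summed microglial markers, given above, moved in the same direction. Tmem119, P2ry12, Cx3cr1 and Siglech belong to both lists, so that sum is no separate measure of cell content. The part of cell content in these values was not tested. Ecscr, an endothelial cell surface protein that microglia also express, read 9.25, 9.86, 9.31, 9.33 and 9.86 in 5XFAD and 10.47 to 10.82 (median 10.67) in Trem2-/-5XFAD, a difference of 1.14 ± 0.12 (adjusted p = 2.5e-06). Tmem119 read 10.66, 10.83, 10.72, 10.67 and 10.79 against 11.23 to 11.49 (median 11.28), a difference of 0.58 ± 0.08 (adjusted p = 8.02e-05). Both genes were higher on every Trem2-/-5XFAD array than on any 5XFAD array. The scaffold Bank1 was higher by 1.19 ± 0.16, Crybb1 by 0.88 ± 0.12 and the adhesion receptor Adgrg1 (Gpr56) by 0.72 ± 0.09. The ADP receptors P2ry13 and P2ry12 were higher by 0.54 ± 0.10 and 0.46 ± 0.10 and the fractalkine receptor Cx3cr1 by 0.33 ± 0.07. Outside this list, the lectin receptor Clec4a2 was higher by 1.24 ± 0.15. Tmem119 in Trem2-/-5XFAD (11.23 to 11.49) stayed below WT (11.51 to 11.79), and P2ry12 overlapped it (11.02 to 11.32 against 11.31 to 11.65). Gpr165 was higher by 1.32 ± 0.24, although its groups overlapped at 7.79 to 8.78 and 6.69 to 7.94.

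Transcription factors of the list moved both ways, 8 of 61 higher and 7 lower. Higher were Klf2 (0.67 ± 0.11), Maf (0.58 ± 0.12), Klf6 (0.42 ± 0.09), Hhex (0.41 ± 0.10) and Jun (0.33 ± 0.08), and also Sall1, which marks microglia among macrophages, by 0.45 ± 0.12 (adjusted p = 0.0284). The call of Sall1 was lost in 14 of 26 other settings, among them median centring and the fit without the 4 salivary arrays, and those of Klf6, Hhex and Jun were lost without the 4 salivary arrays, that of Hhex also without 5XFAD array 1. Mef2c differed by -0.01 ± 0.09 (adjusted p = 0.957). Lower, besides Bhlhe40 and Srebf2, were the orphan receptors Nr4a3, by 1.53 ± 0.16, and Nr4a2, by 0.49 ± 0.13, and Hif1a; Nr4a2 was not called in 7 of 25 other settings. Nfil3, a repressor that works with the circadian clock, read 8.16, 8.39, 8.80, 8.08 and 8.09 against 6.86 to 7.30 (median 6.90), a difference of -1.29 ± 0.18 (adjusted p = 5.85e-05).

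Within the clock list of 20 genes 2 were lower, the repressors Bhlhe40 and Nfil3, and 3 were higher. The haem-binding repressor Nr1d1 (REV-ERB alpha) read 7.45, 8.14, 7.65, 8.05 and 8.38 in 5XFAD and 8.70 to 9.74 (median 8.83) in Trem2-/-5XFAD, a difference of 1.08 ± 0.23 (adjusted p = 0.00515). Its groups did not overlap, and Trem2-/- arrays without the transgenes also stood above WT (8.68 to 9.99 against 7.68 to 8.32). With border macrophage markers as a covariate the difference was 0.62 and was not called (adjusted p = 0.194). Tef was higher by 0.53 ± 0.10 and Nr1d2 by 0.49 ± 0.14, the latter not in 12 of 26 other settings, among them median centring and the fit without the 4 salivary arrays.

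Part of the oxygen-response and sugar-metabolism genes were lower. Of 29 tested targets and regulators of HIF 8 were lower and none higher, with a median of -0.10. Egln3, a prolyl hydroxylase that marks HIF for destruction, read 7.97, 7.97, 7.47, 8.41 and 7.90 in 5XFAD and 4.24 to 6.42 (median 4.63) in Trem2-/-5XFAD, a difference of -3.06 ± 0.28 (adjusted p = 2.6e-07). Hif1a read 9.81, 9.62, 9.75, 9.80 and 9.51 against 8.82 to 9.04 (median 8.87), a difference of -0.79 ± 0.09 (adjusted p = 6.17e-06). Both were lower on every Trem2-/-5XFAD array, and Hif1a stayed above WT (8.07 to 8.39). Of 32 genes of glycolysis and the pentose phosphate pathway 11 were lower and 1 higher, with a median of -0.24; without the 4 salivary arrays 9 were lower. The glucose transporters split: Slc2a1 (GLUT1) was lower by 0.92 ± 0.12 and Slc2a6 by 1.17 ± 0.15, whereas Slc2a5 (GLUT5), the fructose transporter of resting microglia, was higher by 0.54 ± 0.11. The enzymes Tpi1, Pkm and Aldoa were lower by 0.83 ± 0.11, 0.58 ± 0.10 and 0.52 ± 0.09, and the lactate exporter Slc16a3 by 0.64 ± 0.15.

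Part of the respiratory chain and ribosomal protein genes were lower, most by small amounts. Of 37 subunits of complexes III to V 17 were lower, with a median of -0.30, and of 35 subunits of complex I 8 were lower, with a median of -0.33; none was higher in either list. Without the 4 salivary arrays 3 and 1 were called, with medians of -0.23 and -0.20. Cox6a2, the muscle form of a cytochrome oxidase subunit, stood apart from the rest and read 10.81, 10.60, 10.32, 10.45 and 10.41 against 8.50 to 9.05 (median 8.77), a difference of -1.73 ± 0.24 (adjusted p = 5.51e-05). Other subunits differed less, among them Ndufa1 (-0.99 ± 0.17), Uqcr11 (-0.63 ± 0.11) and Cox7b (-0.55 ± 0.11). Of 58 cytosolic ribosomal protein genes 8 were lower, with a median of -0.18, and 1 was lower without the 4 salivary arrays. Rpl8 was lower by 0.44 ± 0.09 (adjusted p = 0.00495) and was not called without them.

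**Figure D4:**
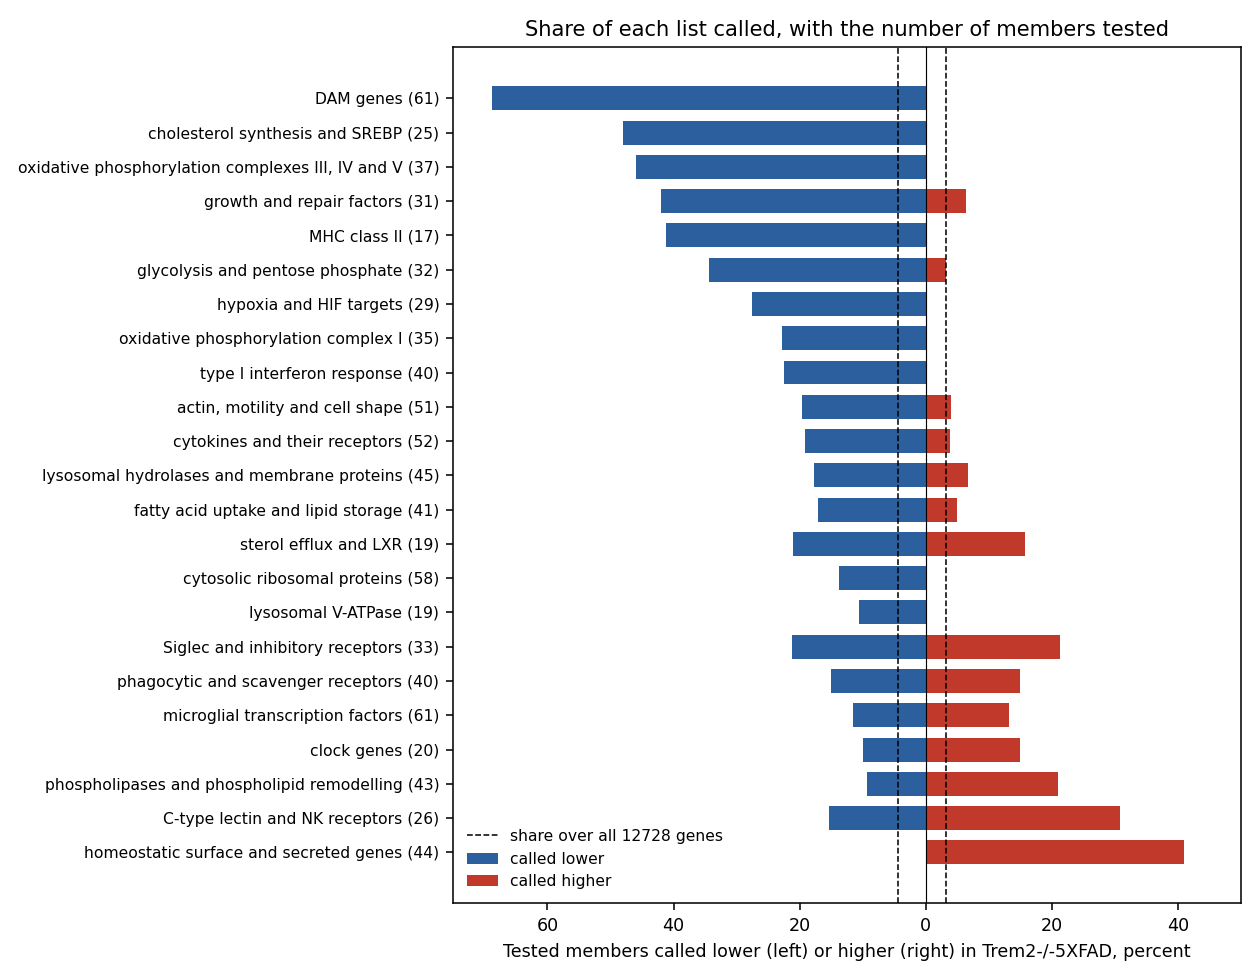
Bars give the percentage of each list's tested members called lower (blue, to the left) or higher (red, to the right) in Trem2-/-5XFAD; dashed lines mark the shares over all 12728 genes, 4.46% and 3.21%. The DAM list has 42 of 61 members lower, and the homeostatic list has 18 of 44 higher.

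Interferon-response genes were lower in part, 9 of 40 with none higher and a median of -0.30. Ifi27l2a read 11.63, 11.28, 10.80, 11.05 and 10.91 in 5XFAD and 9.16 to 9.94 (median 9.61) in Trem2-/-5XFAD, a difference of -1.54 ± 0.30 (adjusted p = 0.00192). Oasl2, an oligoadenylate synthase-like protein, was lower by 1.19 ± 0.21 and Slfn5 by 1.02 ± 0.18. The membrane protein Ifitm3 (-0.77 ± 0.17) and the secreted Lgals3bp (-0.97 ± 0.20) were lower over all arrays and not called without the 4 salivary arrays, when 3 members of the list were called.

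Cytokines and their receptors had 10 of 52 members lower and 2 higher, and their median was -0.05. The p40 chain Il12b read 7.36, 7.24, 6.48, 6.65 and 7.01 against 4.64 to 5.38 (median 5.24), a difference of -1.82 ± 0.17 (adjusted p = 2.19e-07). The tumour necrosis factor family ligands Tnfsf9 (4-1BBL) and Tnfsf8 (CD30L) were lower by 1.77 ± 0.27 and 1.56 ± 0.21, and the interleukin 1 antagonist Il1rn by 1.10 ± 0.19. The cytokines most often measured in inflammation did not pass: Il1b read 11.58, 11.53, 11.13, 11.03 and 10.97 against 9.997 to 10.73 (median 10.16), a difference of -0.97 ± 0.31 (adjusted p = 0.0645), and Tnf differed by -0.30 ± 0.18 (adjusted p = 0.392). The Il1b arrays of the groups did not overlap, and Il1b passed in 6 of 26 other settings, among them the fit without the 4 salivary arrays. Il7r was higher by 0.90 ± 0.21. The microRNA gene Mir155, named after its values were seen, read 7.21, 5.97, 6.02, 6.76 and 6.0 in 5XFAD and 5.08 to 6.14 (median 5.22) in Trem2-/-5XFAD, a difference of -0.94 ± 0.25 (adjusted p = 0.0237). The groups overlapped, and the call was lost in 10 of 26 other settings: the value was -0.81 without the 4 salivary arrays (adjusted p = 0.107), -0.74 without 5XFAD array 1 (adjusted p = 0.0912), -0.85 without 5XFAD array 4 (adjusted p = 0.067) and -0.49 with border macrophage markers as a covariate (adjusted p = 0.403), and leaving out Trem2-/-5XFAD array 1, 3, 4 or 5 gave -0.90 to -0.87, also not called. The array reports the transcript of the gene, not its mature products. Those products, of which the 5p arm is a known regulator of macrophage activation, have these sequences in RefSeq (GRCm38.p6), with the seed, bases 2 to 8, in capitals:
mmu-miR-155-5p: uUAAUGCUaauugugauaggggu
mmu-miR-155-3p: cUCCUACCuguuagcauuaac

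Among 28 chemokine ligands 4 were lower and 4 higher. Cxcl2 read 10.75, 10.82, 11.03, 11.02 and 10.94 in 5XFAD and 9.50 to 9.94 (median 9.67) in Trem2-/-5XFAD, a difference of -1.21 ± 0.29 (adjusted p = 0.011), and Cxcl14 was lower by 1.73 ± 0.16. Both were lower on all Trem2-/-5XFAD arrays. The monocyte attractants Ccl2 and Ccl7 were higher by 0.73 ± 0.14 and 1.28 ± 0.29 and Pf4 by 1.08 ± 0.28; Ccl7 and Pf4 lost their calls without the 4 salivary arrays, where Pf4 was 0.72; Pf4 lost it in 8 of 26 other settings in all, leaving out 5XFAD array 1 or 2 or Trem2-/-5XFAD array 3 among them. With border macrophage markers as a covariate Ccl2 (0.57; adjusted p = 0.0697), Ccl7 (0.52) and Pf4 (0.28) were not called and Cxcl2 was -1.95, still called. Pf4 is itself among these markers, so its lost call there tests nothing. The receptor Cxcr4 read 9.83, 9.31, 9.10, 9.70 and 9.41 against 6.91 to 7.75 (median 7.53), a difference of -2.0 ± 0.27 (adjusted p = 3.35e-05).

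Among pattern sensors, 3 of 24 were lower (12.5%) and 2 higher (8.33%), against 4.46% and 3.21% of all genes. Tlr2, a receptor for bacterial lipopeptides, read 11.10, 11.01, 10.98, 11.07 and 11.04 against 10.26 to 10.49 (median 10.34), a difference of -0.67 ± 0.09 (adjusted p = 2.43e-05), and its co-receptor Cd14 was lower by 0.51 ± 0.11. Sting1, the sensor of cyclic dinucleotides, and the DNA receptor Tlr9 were higher by 0.48 ± 0.09 and 0.44 ± 0.10, the latter not without the 4 salivary arrays. The first complement component C1qa differed by 0.01 ± 0.08 (adjusted p = 0.977). Cybb, the catalytic subunit of the phagocyte oxidase, read 9.02, 8.82, 8.88, 9.46 and 9.0 against 6.30 to 7.18 (median 6.67), a difference of -2.36 ± 0.19 (adjusted p = 3.02e-08).

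The list of Siglec and inhibitory receptors, which also holds related genes such as the ligand Cd274, was divided evenly, with 7 of 33 lower and 7 higher. Lower were Pdcd1 (PD-1), by 1.71 ± 0.18, its ligand Cd274 (PD-L1), by 0.96 ± 0.16, Cd200r4, by 1.99 ± 0.35, Milr1, by 1.23 ± 0.15, and Lilrb4a, by 0.85 ± 0.18. Pdcd1 read 7.69, 7.12, 7.22, 7.35 and 7.30 in 5XFAD and 5.19 to 6.07 (median 5.60) in Trem2-/-5XFAD, with WT at 4.56 to 5.66, so receptor and ligand were lower together and apart from the 5XFAD arrays. Higher were the sialic acid receptor Cd33, at 10.37 to 10.71 against 9.74 to 10.31, by 0.59 ± 0.10 (adjusted p = 0.000807), Pirb by 0.89 ± 0.17, Clec4a3 by 0.85 ± 0.16, Cd300a by 0.52 ± 0.12 and Siglech by 0.34 ± 0.08. Siglech was not called without the 4 salivary arrays.

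C-type lectin and NK receptors included 8 of 26 higher and 4 lower, with a median of 0.32. Clec10a read 2.46, 2.69, 3.14, 2.95 and 3.07 in 5XFAD and 3.60 to 4.77 (median 4.21) in Trem2-/-5XFAD, a difference of 1.41 ± 0.28 (adjusted p = 0.00261) in a range around the 40th percentile of the arrays. Cd209f was higher by 1.13 ± 0.28 and Klrd1 by 1.59 ± 0.39, and Klrd1 was not called without the 4 salivary arrays. Cd209f was not called with the neutrophil markers as a covariate (1.05; adjusted p = 0.057) or with those of border macrophages (0.40; adjusted p = 0.425). Clec10a and the Cd209 genes are also made by border macrophages, whose markers stood higher in Trem2-/-5XFAD: of 16 tested, 8 were higher, 1 was lower, and the median was 0.52. Among them the mannose receptor Mrc1 read 5.46, 5.81, 6.94, 6.95 and 6.97 against 7.28 to 8.28 (median 7.64), a difference of 1.28 ± 0.28 (adjusted p = 0.0046). Stab1 was higher by 0.91 ± 0.13, Cd163 by 0.88 ± 0.20 and Ms4a7 by 0.76 ± 0.18. The rise was not particular to the plaque-bearing mice: between Trem2-/- and WT the median of the list was 0.48. Cd163 was called higher there too, by 1.17 ± 0.24. The 5XFAD arrays 1 and 2 were the lowest for Mrc1, and without the 4 salivary arrays Mrc1 (0.76) and Cd163 lost their calls and 3 of the 16 markers stayed higher. The mean log2 level of the 16 markers was 5.28 to 5.91 in 5XFAD and 5.96 to 6.50 in Trem2-/-5XFAD; with it as a covariate 175 genes were called higher and 371 lower. With that covariate Mrc1 (0.53), Cd163 (0.30), Ms4a7 (0.50), Clec10a (0.74) and Klrd1 lost their calls, and so, among genes described above and below, did Pik3cd, Galc, Sgsh, Psmb8, Maf, Klf6, Jun, Tlr9, Siglech, P2rx7 (0.28), Gfap and S100b. Mrc1, Cd163, Ms4a7 and Maf are themselves among the 16 markers. The covariate thus takes up part of their difference by construction, and their lost calls test nothing. With a pseudocount of 16 Clec10a was 0.63, Klrd1 1.03 and Cd163 0.56, each still called. The ranges of the mean marker level did not overlap between the groups, and the part of these markers in the other values was not tested.

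Rasgrf2, an exchange factor for Ras, was the largest increase of all genes called. It read 4.09, 4.07, 4.41, 3.82 and 3.96 in 5XFAD and 6.20 to 7.56 (median 6.94) in Trem2-/-5XFAD. The difference was 2.91 ± 0.21 (adjusted p = 8.63e-09), and 2.15 to 3.06 over the other settings. The 5XFAD values lie around the 40th percentile of the arrays (4.16 to 4.34). The exchange factors Dock10 and Dock4 were higher by 0.70 ± 0.10 and 0.47 ± 0.10, Dock4 not without the 4 salivary arrays, and the GTPase-activating Arhgap26 was lower by 1.5 ± 0.16. Actin and motility genes had 10 of 51 lower and 2 higher. The motors Myo1e and Myo5a were lower by 1.84 ± 0.17 and 0.94 ± 0.21, Rai14 by 1.35 ± 0.18 and the actin-binding peptide Tmsb10 by 0.73 ± 0.10, and alpha-actinin Actn1 was higher by 1.06 ± 0.18. Annexins A2 and A5 (Anxa2, Anxa5), which bind membranes in the presence of calcium, were lower by 1.05 ± 0.16 and 0.90 ± 0.12.

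Among 74 tested ion channel genes 8 were lower (10.8%) and 1 higher (1.35%), with a median of 0.06. The calcium channel subunit Cacna1a read 7.0, 7.05, 6.76, 7.52 and 7.29 in 5XFAD and 5.48 to 5.78 (median 5.60) in Trem2-/-5XFAD, a difference of -1.52 ± 0.14 (adjusted p = 2.2e-07). The chloride channel protein Clic4 and the potassium channels Kcnj2 (Kir2.1) and Kcna3 (Kv1.3) were lower by 1.20 ± 0.23, 1.19 ± 0.22 and 0.63 ± 0.12. ATP receptors split, with the channel P2rx4 lower by 0.58 ± 0.10 and P2rx7 higher by 0.44 ± 0.12, the latter not in 7 of 26 other settings, among them those without the 4 salivary arrays, without 5XFAD array 2 and without 5XFAD array 3. Of 214 solute carriers 12 (5.61%) were higher and 6 (2.80%) lower, near the 3.21% and 4.46% of all genes. The iron exporter Slc40a1 (ferroportin) read 5.29, 5.71, 5.21, 5.96 and 6.20 against 6.43 to 7.31 (median 7.12). The difference was 1.30 ± 0.21 (adjusted p = 0.000248), while WT lay at 6.89 to 7.58. The proton-sensing receptor Gpr65 was lower by 1.31 ± 0.23 and the macrophage receptor Adgre1 higher by 0.69 ± 0.10.

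Astrocyte markers, which do not belong to the sorted cells, were lower in 3 of 9 tested. Gfap read 6.45, 7.08, 5.96, 6.12 and 6.29 in 5XFAD and 5.41 to 5.81 (median 5.65) in Trem2-/-5XFAD, a difference of -0.76 ± 0.16 (adjusted p = 0.00507), and S100b was lower by 1.12 ± 0.29. The highest Gfap values were those of 5XFAD arrays 1 and 2, without which, together with WT arrays 1 and 2, neither gene was called (Gfap -0.50); S100b was also not called when 5XFAD array 1 or 5XFAD array 2 alone was left out. None of 8 tested neutrophil markers was called, although their median was 0.78 and 3 of them passed an unadjusted limma p under 0.05, as did 2535 of all 12728 genes (19.9%).

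The same receptor loss can be read in mice without plaques, from arrays that enter neither group above. Between Trem2-/- and WT 78 of 12728 genes were called, and 34 genes were called in both comparisons: 43.6% of the 78 and 3.48% of the 977. In 31 of the 34 the differences had the same sign. Over all genes the differences correlated with r = 0.25 across genes, which are not independent replicates. Of the 34 genes, 7 lie on chromosome 17, which carries Trem2 and 653 of the genes tested, and 3 on chromosome X. Several genes described above are among the 34. Without the transgenes Csf1 differed by -0.94 ± 0.14, Cst7 by -0.94 ± 0.18, Arhgap26 by -0.87 ± 0.19 and H2-M3 by -0.84 ± 0.18. Each was lower in both comparisons, with a smaller estimate without the transgenes. The limma interaction, described below, passed for Cst7 (-0.97 ± 0.23, adjusted p = 0.0288). It did not pass for Csf1 (-0.65 ± 0.18, adjusted p = 0.0614), Arhgap26 (-0.63 ± 0.25, 0.235) or H2-M3 (-0.43 ± 0.23, 0.425). G530011O06Rik and Mid1, a ubiquitin ligase, read 5.12 to 6.41 and 6.16 to 7.04 in Trem2-/-5XFAD against 10.08 to 10.57 and 9.14 to 9.61 in 5XFAD, and 3.54 to 5.17 and 5.78 to 6.78 in Trem2-/- against 10.86 to 11.37 and 9.12 to 9.92 in WT. Both followed the Trem2 genotype in either setting, as did Rasgrf2, which read 7.33 to 8.07 in Trem2-/- against 4.70 to 5.58 in WT. The differences with the transgenes were -4.74 ± 0.25 for G530011O06Rik and -2.72 ± 0.19 for Mid1, and those without were -6.85 ± 0.29, -3.31 ± 0.22 and, for Rasgrf2, 2.53 ± 0.25. The interaction of G530011O06Rik was 2.12 ± 0.38 (adjusted p = 0.00299). Chosen after their values were seen, the glyoxalase Glo1 differed by 1.04 ± 0.13 with and 0.94 ± 0.15 without the transgenes, the mitochondrial transhydrogenase Nnt by 0.92 ± 0.12 and 0.76 ± 0.13, and Crip1 by -1.64 ± 0.15 and 0.77 ± 0.17, in opposite directions.

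**Figure D5:**
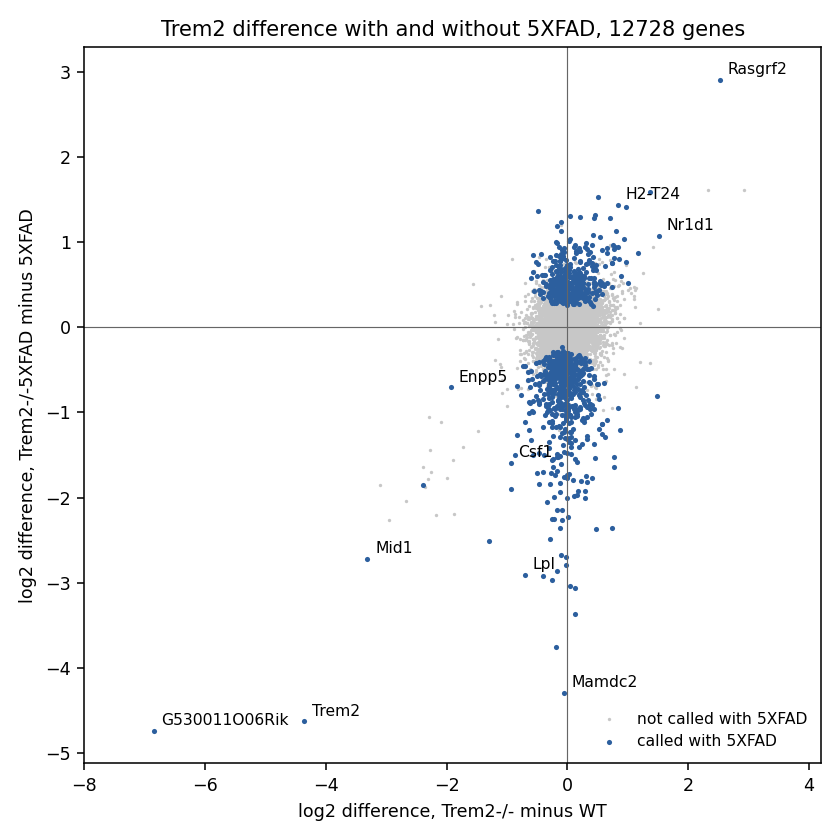
Each point is a gene; the x axis is the log2 difference of Trem2-/- minus WT and the y axis that of Trem2-/-5XFAD minus 5XFAD, with genes called in the latter in blue. Trem2, G530011O06Rik, Mid1 and Rasgrf2 differ on both axes, whereas Mamdc2 lies close to the vertical zero line.

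Whether the effect of Trem2 differed with and without the transgenes was tested as an interaction. The interaction, which is the Trem2 difference with the transgenes minus the difference without them, passed for 331 genes (2.6% of those tested), 201 with a negative and 130 with a positive value. It was -4.23 ± 0.32 for Mamdc2 (adjusted p = 7.1e-08), -3.50 ± 0.25 for Atp6v0d2 (adjusted p = 6.16e-08), -2.71 ± 0.21 for Flt1 (adjusted p = 1.16e-07) and -2.51 ± 0.24 for Itgax (adjusted p = 1.6e-06). Among the genes that were higher it was 1.34 ± 0.23 for Clec4a2 (adjusted p = 0.00215), 1.24 ± 0.19 for Ecscr (adjusted p = 0.000672) and 0.69 ± 0.13 for Tmem119 (adjusted p = 0.00385). It did not pass for Trem2 (-0.27 ± 0.18; adjusted p = 0.552), Rasgrf2 (0.38 ± 0.32; 0.662) or Mid1 (0.59 ± 0.29; 0.364). Xist was high on 3 of 4 WT and 3 of 4 Trem2-/- arrays and on 1 of the 11 arrays with the transgenes, so sex and transgene lie unevenly here. With only the arrays low in Xist, WT array 2 and Trem2-/- array 4 alone represented the mice without the transgenes. The interactions were then 1.47 for G530011O06Rik, 1.0 for Ecscr and 0.78 for Tmem119. With single arrays on that side, that fit cannot settle whether these interactions hold within a sex.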

How the data were processed

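Intensities are the authors' deposited processed values of a one-colour gene array; no normalization was given in the sources used here. Probe sets were named through the platform annotation: of 24679, 21354 had 1 gene, 1275 several and 2050 none; 21277 of those with 1 gene matched the reference. Per gene the probe set of highest mean was kept. Values were taken as log2(intensity + 1); genes had to exceed the array's 40th percentile on at least 4 arrays, which left 12728. limma 3.58.1 (R 4.3.3) fitted the means of 4 groups over 19 arrays, tested on simulated data, with Benjamini-Hochberg adjustment over all genes and a threshold of 0.05. Named were Trem2, the 15 largest changes per direction, up to 5 called members per list and direction (2 where none was called), a fixed set and their partners; not all are described. Members and lists were chosen with earlier results of these data known. The labels do not say whether arrays come from separate animals, so p-values measure the spread between these samples; the number of arrays limits precision. Numbers in the titles were not used to pair the arrays. Across genes, the deviations of same-numbered arrays from their group means correlated at -0.044 to 0.052, which does not exclude a pairing. Alternatives covered pseudocount, filter, scaling, weights, trend, block, probe sets, covariates and subsets of arrays. Tables and figures were made with Python 3.11.15 and matplotlib 3.10.9.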

Additional observations from a re-analysis of the deposited data

Results flagged for a closer look

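Among 187 genes checked in both groups (374 groups of arrays), 27 groups had 1 array whose gap to the nearest other array was large against the range of the group; chance gives about 1 in 20 groups. Trem2-/-5XFAD array 2 accounted for 10 of them. It was the lowest of its group for Inpp5d (10.26), P2ry13 (11.35), Sall1 (9.45), Lgals3bp (9.18), Tlr9 (8.55), Cd33 (10.37) and Stab1 (8.18), and the highest for Cd63 (11.09), Clec4a2 (7.88) and Egln3 (6.42). Trem2-/-5XFAD array 1 was high for H2-Aa (9.0) and low for Gpr165 (7.79); it is also the array with the largest sum of neutrophil markers. Trem2-/-5XFAD array 4 was high for Sgsh (6.56) and low for Psmb8 (8.60).

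In 5XFAD, array 3 was the lowest for Pik3cg (8.35), Axl (8.46), Glb1 (8.51), Lpcat2 (10.41), Pld3 (10.48) and Cd300a (7.94). Array 2, which holds salivary transcripts, was low for Rab7b (7.17), Acaca (7.22) and Tlr9 (8.27) and high for Vav2 (7.02) and Clec4a3 (8.16). Array 1, which also holds them, was high for Stard4 (6.20), and array 5 was low for Ctsb (11.93).

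By the interaction term of limma, the effect of Trem2 loss differed between mice with and without the transgenes for 8 of 11 genes. These 11 genes are those whose interaction was followed over the other settings. Over all 12728 genes tested the interaction passed for 331 (2.6%). The 11 genes were chosen with their difference between the plaque-bearing groups known. That difference is part of the interaction, so the count of 8 is no independent result. The interaction was -4.23 for Mamdc2, -3.50 for Atp6v0d2, -2.71 for Flt1 and -2.51 for Itgax, and it was 2.12 for G530011O06Rik, 1.34 for Clec4a2, 1.24 for Ecscr and 0.69 for Tmem119. With only the arrays low in Xist, those of G530011O06Rik, Ecscr and Tmem119 were 1.47, 1.0 and 0.78. WT array 2 and Trem2-/- array 4 alone then represented the mice without the transgenes, so that fit cannot settle the calls.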

How the results depend on the processing

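Of 4858 combinations of a named gene and another setting, 4677 kept direction and side of the threshold, 150 lost a call, 17 gained one and 14 turned direction; 134 of 173 called genes kept their call in every setting that tested them. The 977 called genes became 579 (254 higher, 325 lower) without 5XFAD 1 and 2 and WT 1 and 2, and 546 (175 higher, 371 lower) with border macrophage markers as a covariate. Median centring called 260 higher genes. Leaving out 1 array gave 675 to 1025 genes, 270 to 445 higher and 405 to 580 lower; without 5XFAD 1 the count was lowest. The replicate number as a block gave 753 genes (298 higher, 455 lower). The interaction passed for 61 genes with Y-linked signal arrays only, where the interactions of G530011O06Rik, Ecscr and Tmem119 did not pass, and for 241 to 362 without 1 array. Directions turned for genes near 0 that were not called: Ctsd to 0.0478 with quantile scaling; Mef2c to 0.0431 with quantile scaling, 0.011 with the block and 0.0144 with the neutrophil covariate, and -0.0695 to 0.0307 without 1 array; C1qa to -0.0446 with median centring, -0.0109 with the neutrophil and -0.0225 with the border macrophage covariate, and -0.0163 to 0.0313 without 1 array. The cause was not tested.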
